A study of Drosophila melanogaster with 27 samples.

Results

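Glutathione S-transferases (GSTs) and UDP-glycosyltransferases (UGTs) are the main conjugating enzymes of the fly. The genes described here are the 52 of 11923 in the deposited expression table whose symbol starts with Gst or Ugt followed by a capital letter or digit, 35 GST and 17 UGT genes. They were measured by RNA sequencing of polyadenylated transcripts from heads of female Drosophila melanogaster of the wild-type strain Oregon-R, raised at 25 °C. A group of 3 samples came from flies 50 days old and a group of 3 from flies 3 days old, each sample being a pool of 20 heads, on standard food and with no transgene named in the labels. The series holds 27 samples in 9 groups, and the other 21 samples, from diet and Lpp-driven overexpression experiments, were not analysed here. Each sample holds whole heads, so fewer cells of a type and less RNA per cell cannot be told apart in any value below.

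GSTs join the tripeptide glutathione to reactive molecules such as plant toxins, insecticides and the aldehydes formed when lipids are oxidised, and some isomerise or reduce their substrates instead. The cytosolic GSTs of insects fall into classes named by Greek letters, of which delta (GstD) and epsilon (GstE) are large, recently duplicated insect classes, while omega (GstO), sigma (GstS), theta (GstT) and zeta (GstZ) are shared with mammals. UGTs are membrane enzymes of the endoplasmic reticulum that add a sugar, in insects mostly glucose from UDP-glucose, to odorants, pigments, hormones and toxins. In flies the transcription factor encoded by cnc, the orthologue of mammalian Nrf2, drives many of these genes, with GstD1 as the usual reporter.

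The values are read as FPKM, which divide the fragments of a gene by its length and by library size, so that levels can be set side by side between genes. The summed values ran from 504504 to 539645 FPKM in the 50-day libraries and from 427992 to 502587 FPKM in the 3-day libraries. The table states no sequencing depth. Fragment numbers given below are rough, worked out from the smallest non-zero values and exon lengths, and are too coarse for a counting interval. Tests used log2(scaled value + 1), where each library was multiplied by a factor that sets the bulk of the genes equal, so every direction is relative to that bulk.

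With age the GST and UGT genes moved in both directions. The filter of a mean of at least 1 FPKM left 38 of the 52 genes to test, 30 GSTs and 8 UGTs. At a limma adjusted p under 0.05, 15 were higher in 50-day heads and 8 were lower: 13 GSTs were higher and 6 lower (median log2 change 0.27), and 2 UGTs were higher and 2 lower (median -0.023). That is 60.5% of the tested members, where the same threshold called 39.1% of all 8742 genes tested. Higher calls made up 39.5% of the members, against 18.3% of all genes, and lower calls 21.1%, against 20.8%. The median log2 change was 0.23 over the tested members and -0.0011 over all tested genes. The members had a median level of 30.3 FPKM, against 13.6 FPKM over all tested genes, and the lists were not matched for level. In 25 members (65.8%) the scaled values of the ages did not overlap, beside 54.3% of all tested genes. A change of at least 2-fold was called in 2 members, GstE1 and Ugt37a1, or 5.26%, beside 7.26% of all tested genes.

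The balance of directions depended on the scaling between libraries, for the members and for all genes. With the deposited values as they stand, 12 members were called higher and 8 lower, beside 1138 higher and 2271 lower of all genes, whose median moved to -0.10. With equal library sums, each library rescaled to the same total, 8 were called higher and 9 lower, beside 734 higher and 3125 lower of all 8755 genes tested at that setting, whose median moved to -0.26. Replicate 3 of the 3-day heads also stood apart for these genes: among the 3-day libraries it had the highest scaled value in 33 of the 38 tested members (86.8%), including all 8 UGTs, beside 38.8% of all tested genes. Leaving it out gave 20 members called higher and 7 lower. Fat body markers were higher with age as well, 5 of 7 called (71.4%, beside 39.1% of all tested genes). They had a summed level of 33330, 26741 and 21183 FPKM at 50 days, against 6607, 8950 and 14421 FPKM at 3 days. Most of that sum was Yp1, a yolk protein gene, which was highest among the 3-day libraries in replicate 3, at 13190 FPKM. Other fat body markers differed in whether they followed it there. In 3-day replicates 1, 2 and 3, fit had 355, 447 and 811 FPKM, and Fbp1 had 1.31, 1 and 3.05 FPKM. CG34166 had 5.11, 10.6 and 10.7 FPKM, and apolpp 322, 319 and 338 FPKM. Lsp2 was lowest in replicate 3, at 4.83 FPKM, and Fatp had 73.3, 63.3 and 63.7 FPKM. The part of fat body RNA in the GST and UGT changes was not tested.

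**Figure D1:**
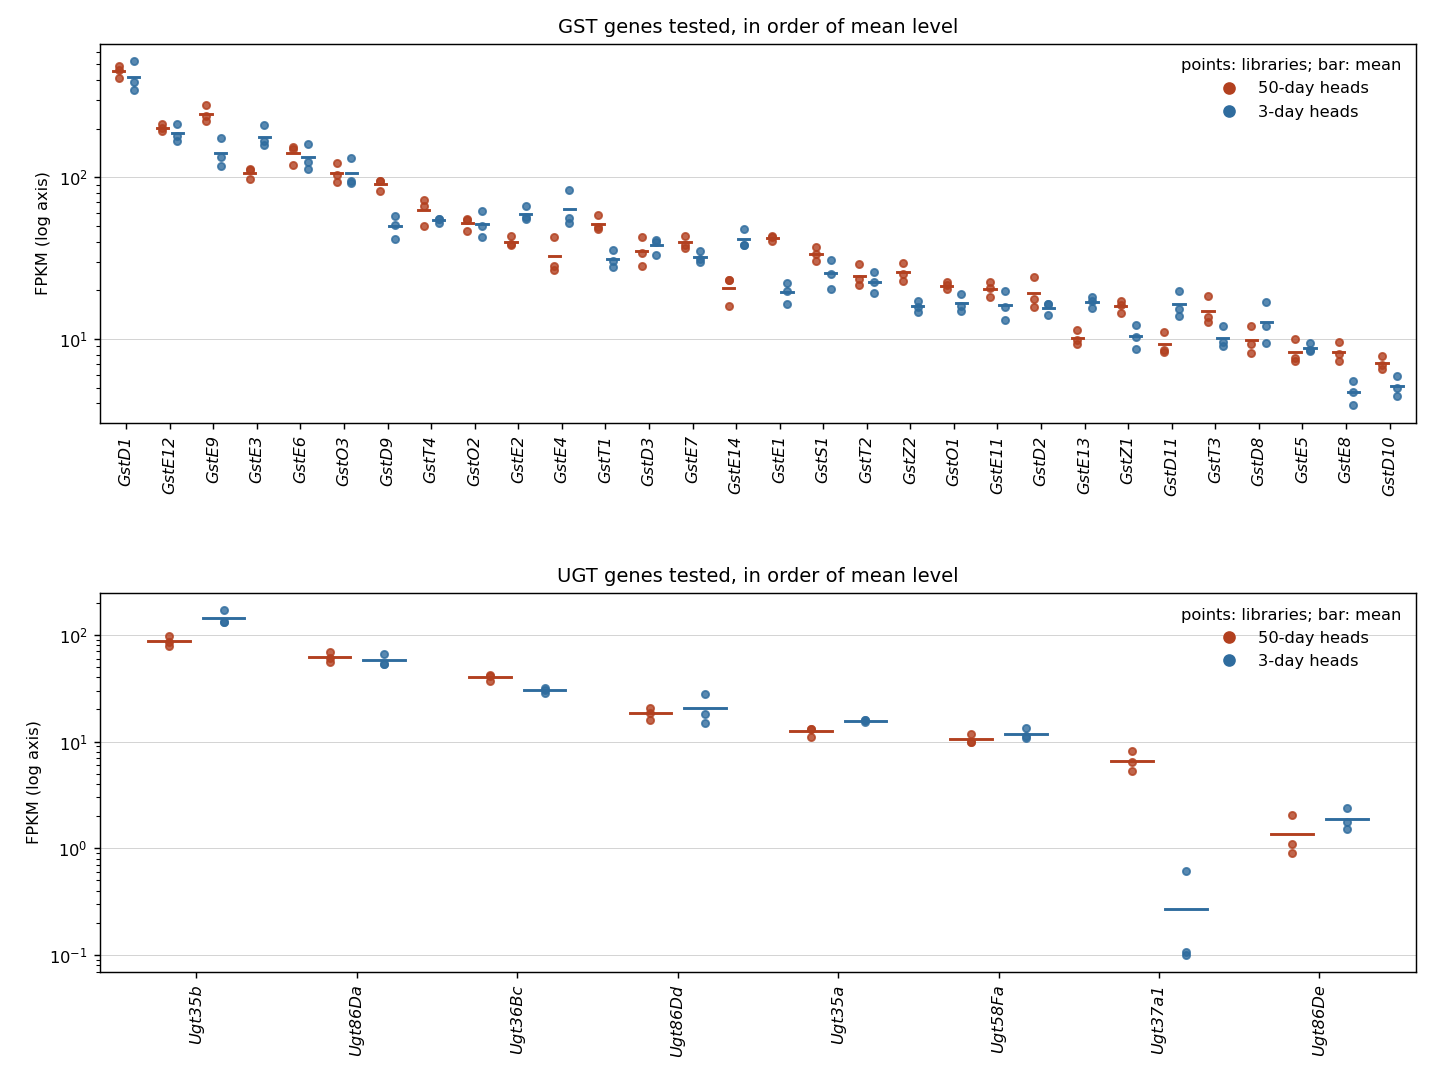
FPKM on a log axis for the 30 GST genes (top) and 8 UGT genes (bottom) that passed the filter, in order of mean level, with 50-day libraries left of 3-day libraries. Points are libraries and bars are means of 3; GstD1 was the most abundant GST, and Ugt37a1 is the gene whose ages lie furthest apart.

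Levels among the GSTs spanned a wide range. The scaled mean over the 6 libraries ran from 6.15 FPKM for GstD10 to 438 FPKM for GstD1 among the tested genes, with a median of 31.1 FPKM. GstD1, GstE9, GstE12 and GstE3 together held 50.4% to 53.5% of the summed GST level in the 50-day libraries and 50.2% to 52.5% in the 3-day libraries. The summed level of all 35 GSTs, after scaling, was 2054, 2023 and 2024 FPKM at 50 days, against 1545, 1603 and 2078 FPKM at 3 days. The ages overlapped, with 3-day replicate 3 the highest of all 6 libraries. The summed scaled level of the 17 UGT genes was 250.1, 254 and 251 FPKM at 50 days, against 256, 247 and 321 FPKM at 3 days, again overlapping. Within a library no scaling enters. There the 35 GSTs summed to 8.21, 7.96 and 8.07 times the 17 UGTs at 50 days, against 6.03, 6.48 and 6.48 times at 3 days, without overlap. This ratio depends on the symbol rule, which leaves out 15 genes that RefSeq names Ugt. Those genes summed to 199, 200.2 and 197 FPKM at 50 days, against 185, 176 and 197 FPKM at 3 days.

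**Figure D2:**
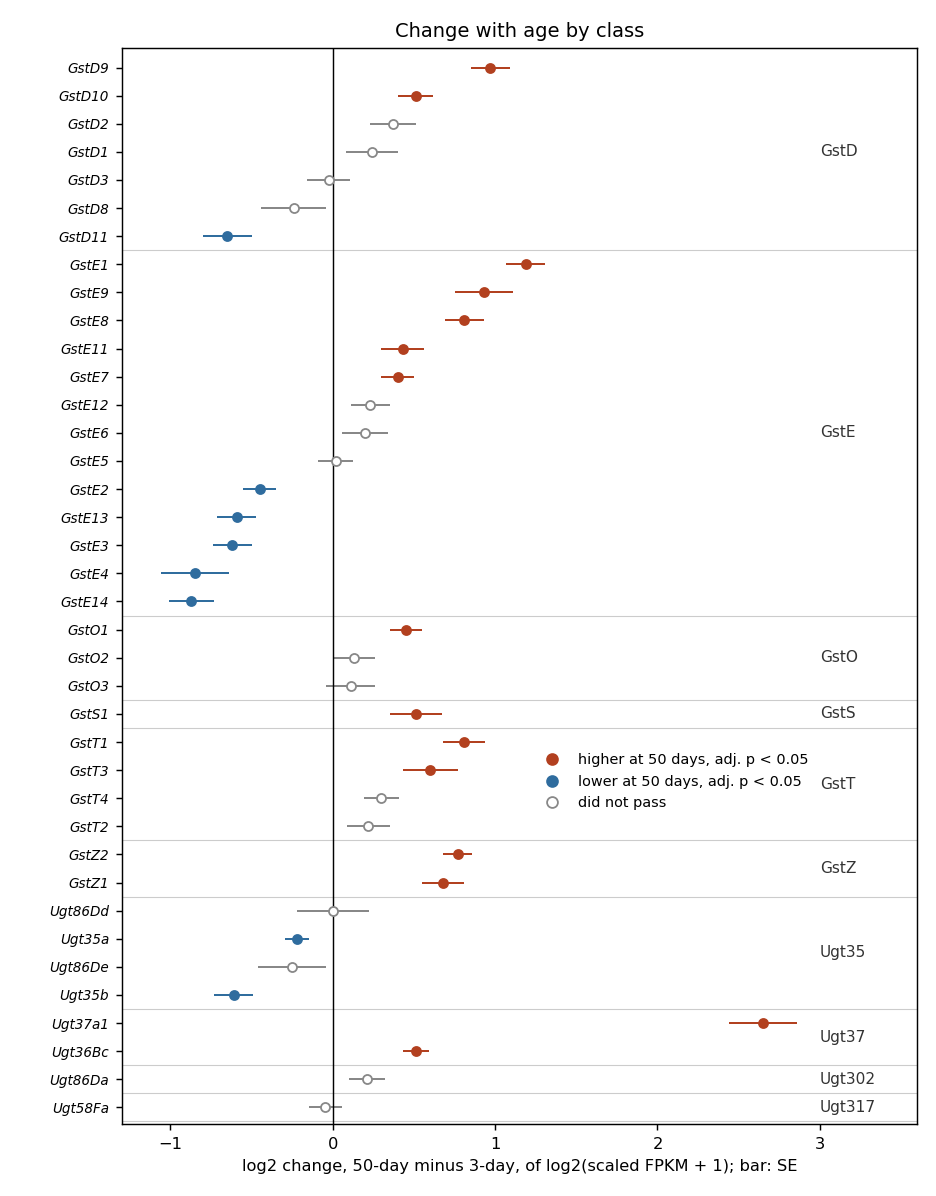
Log2 change (50-day minus 3-day, on the log2(scaled FPKM + 1) scale) of each tested gene with its standard error, grouped by class. Filled points passed a limma adjusted p of 0.05, red higher and blue lower at 50 days, and open points did not pass; in the tested GstO, GstS, GstT and GstZ genes every change was above 0, though GstO2, GstO3 and GstT2 fall below 0 with equal library sums, while GstD, GstE and Ugt35 hold genes on the lower side as well.

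The epsilon class held the most changes, in both directions. It also had the most tested genes of any class. Of 14 GstE genes 13 were tested, of which 5 were called higher and 5 lower, with a median log2 change of 0.20. That is 76.9% called, beside 39.1% of all tested genes. Of these genes 10 stand in a tandem cluster on chromosome arm 2R, from 18396638 to 18409835 in the BDGP6 assembly, a span of 13.2 kb. In the annotation 9 of the 10 lie on the plus strand, and all 9 have a single exon block. The order along the chromosome is GstE10, on the minus strand and overlapping the start of GstE1, then GstE1 to GstE9. GstE10 was at or near 0 in every library and was not tested. Strand handling in the authors' counting is not given in the sources used here.

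Along this cluster GstE1 was higher at 50 days, GstE2 to GstE4 were lower and GstE7 to GstE9 were higher. GstE1 had 43.4, 42.7 and 40.4 FPKM in 50-day heads, against 16.5, 19.9 and 22.1 FPKM in 3-day heads. Each 50-day library was well above each 3-day library, and no other GST changed as much (log2 change 1.19, SE 0.12, limma adjusted p = 0.000277). Its neighbour GstE2 went the other way, with 38.2, 43.3 and 38.6 FPKM in 50-day heads, against 56.6, 55.1 and 66.9 FPKM in 3-day heads (log2 change -0.45, SE 0.10, limma adjusted p = 0.00964). GstE3, the next gene, is among the most abundant GSTs, with 98.1, 112 and 110.4 FPKM in 50-day heads, against 167, 158 and 211 FPKM in 3-day heads. It fell without overlap of the ages (log2 change -0.62, SE 0.12, limma adjusted p = 0.00569). GstE4 had 26.6, 42.5 and 28.4 FPKM in 50-day heads, against 52, 56.3 and 83.5 FPKM in 3-day heads (log2 change -0.85, SE 0.21, limma adjusted p = 0.0141). Its call was lost without 50-day replicate 1 (log2 change -0.77, limma adjusted p = 0.0527; 0.000255 to 0.0527 across the 15 alternatives).

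Further along the cluster the changes turned upwards. GstE5 and GstE6 did not pass, with log2 changes of 0.017 and 0.20. GstE6 passed without 3-day replicate 3 (0.35, limma adjusted p = 0.0324; 0.0324 to 0.669 across the 15 alternatives). GstE7 rose by 0.40 on the log2 scale (SE 0.10, limma adjusted p = 0.0121), a call lost without 50-day replicate 2 (0.35, adjusted p = 0.0515). The call was also lost with unscaled values (0.29, limma adjusted p = 0.0503) and with equal library sums (0.12, limma adjusted p = 0.461), in 15 alternatives that spanned 0.00683 to 0.461. GstE8 had 7.34, 8.13 and 9.55 FPKM in 50-day heads, against 3.89, 4.7 and 5.51 FPKM in 3-day heads, and rose by 0.81 (SE 0.12, limma adjusted p = 0.00159). GstE9, the last gene, had 282, 239 and 224 FPKM in 50-day heads, against 117, 134 and 175 FPKM in 3-day heads. It rose by 0.93 (SE 0.18, limma adjusted p = 0.00482), and at 50 days its mean of 248 FPKM was second to GstD1 among the GSTs. From GstE4 to GstE9 the estimates ascended in gene order, an order seen afterwards and not tested.

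Ratios between members of the cluster, taken within each library, carry no scaling factor. GstE1 was 1.14, 0.985 and 1.05 times GstE2 in 50-day heads, against 0.292, 0.362 and 0.33 times in 3-day heads. The ratio differed 3.22-fold between the means and did not overlap. GstE9 was 2.87, 2.13 and 2.03 times GstE3 in 50-day heads, against 0.699, 0.845 and 0.828 times in 3-day heads, so the order of these abundant genes was the opposite at the 2 ages in all libraries. GstE8 was 0.276, 0.191 and 0.336 times GstE4 in 50-day heads, against 0.0749, 0.0835 and 0.066 times in 3-day heads. With 3 libraries per age an exact permutation test cannot go below p = 0.10, so no p is given for these ratios, and the pairs were chosen after the gene changes were seen.

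**Figure D3:**
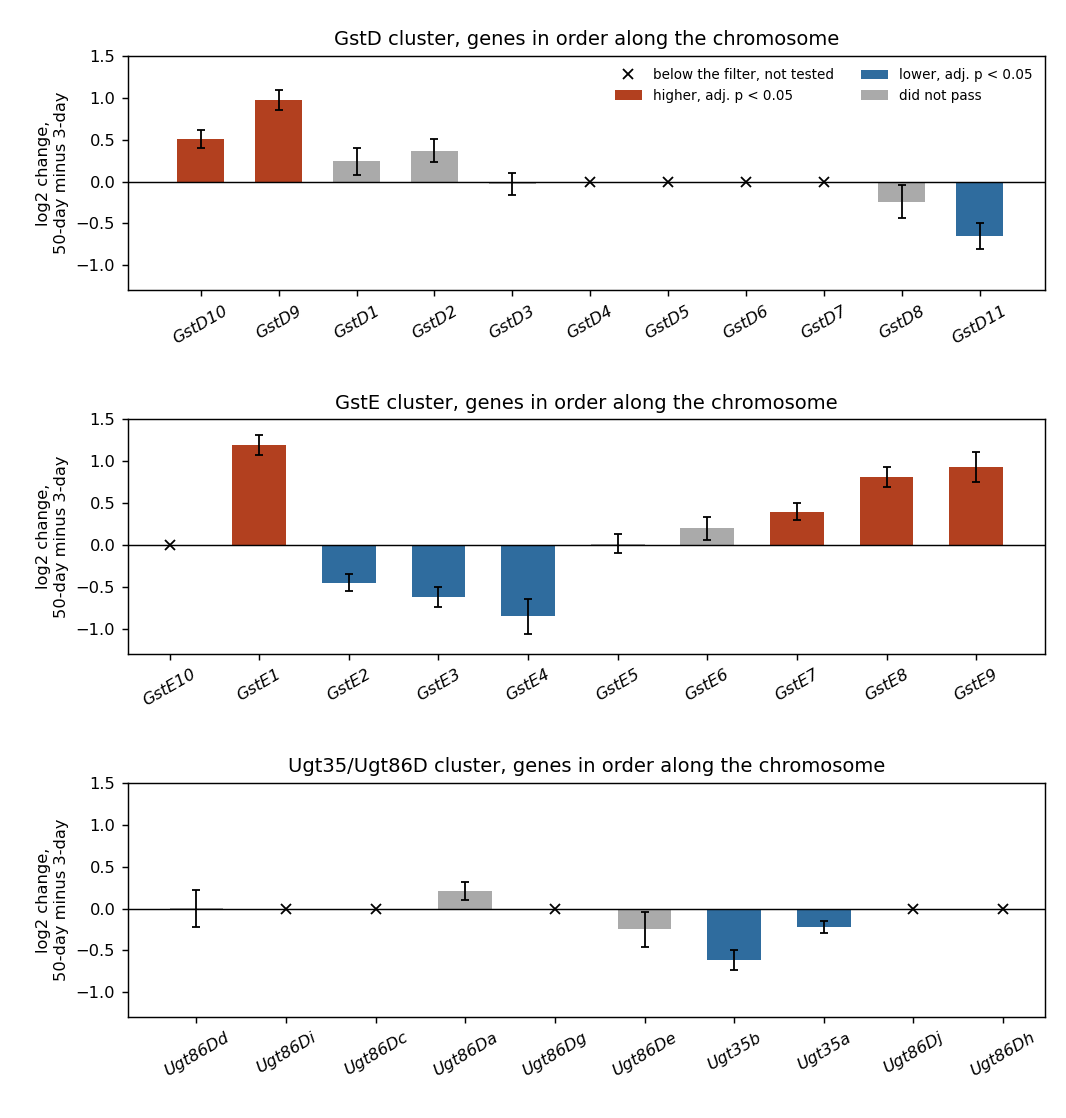
Log2 change (50-day minus 3-day) with its standard error for genes in their order along the chromosome in the GstD, GstE and Ugt35/Ugt86D clusters. Red bars were higher and blue bars lower at 50 days at a limma adjusted p under 0.05, grey bars did not pass, and crosses mark genes below the filter; in the GstE cluster GstE1 and GstE7 to GstE9 point up and GstE2 to GstE4 point down.

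The 4 epsilon genes outside the cluster also divided. GstE14, known as noppera-bo and needed for ecdysone synthesis in the larval prothoracic gland, had 15.9, 23.3 and 23.3 FPKM in 50-day heads, against 48.2, 38.3 and 38.4 FPKM in 3-day heads. It had the lowest change of all members (-0.87, SE 0.14, limma adjusted p = 0.00227), with no overlap of the ages. GstE13 fell by 0.59 (SE 0.12, limma adjusted p = 0.00519). GstE12 had 202, 215 and 193 FPKM in 50-day heads, against 167, 181 and 215 FPKM in 3-day heads, and did not pass (0.23, SE 0.12, limma adjusted p = 0.17). Without 3-day replicate 3 it did (0.34, adjusted p = 0.0377; 0.0377 to 0.728 across the 15 alternatives). GstE11 rose by 0.43 (SE 0.13, limma adjusted p = 0.0344), a call that held in only 7 of 15 alternatives. Leaving out 50-day replicate 1, 2 or 3 gave GstE11 a limma adjusted p of 0.0659, 0.0766 or 0.0942, and leaving out 3-day replicate 1 or 2 gave 0.0786 or 0.0933, within a span of 0.00443 to 0.362 over all 15.

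The delta class is a compact cluster too, of 11 genes on 3R from 12364776 to 12385624, a span of 20.8 kb, with 7 genes of a single exon block. Only 7 of the 11 passed the filter, and 3 were called (42.9%, near the 39.1% of all tested genes). GstD1, which can break down DDT, was the most abundant member of either family, with 412, 462 and 491 FPKM in 50-day heads, against 347, 387 and 526 FPKM in 3-day heads. The ages overlapped and the change did not pass (log2 change 0.24, SE 0.16, limma adjusted p = 0.273). Without 3-day replicate 3, the highest value of all 6, the change was 0.42 (limma adjusted p = 0.0186), whereas setting all library sums equal gave -0.043 (limma adjusted p = 0.82). The adjusted p of GstD1 thus ran from 0.0186 to 0.82 over 15 alternatives.

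The called delta genes stand at the ends of the cluster. GstD9, which lies next to GstD1 on the same strand, had 82.4, 95.1 and 95.3 FPKM in 50-day heads, against 41.3, 50.6 and 57.6 FPKM in 3-day heads. It rose by 0.97 (SE 0.12, limma adjusted p = 0.000724), and its level was 0.2, 0.206 and 0.194 times that of GstD1 in 50-day libraries, against 0.119, 0.131 and 0.109 times in 3-day libraries. GstD10, at the same end, rose by 0.51 (SE 0.11, limma adjusted p = 0.00958), but with equal library sums its change was 0.26 (limma adjusted p = 0.146; 0.00455 to 0.146 across the 15 alternatives). At the opposite end GstD11 fell (log2 change -0.65, SE 0.15, limma adjusted p = 0.00955). Between them GstD2, GstD3 and GstD8 did not pass, with changes of 0.37, -0.026 and -0.24 (limma adjusted p = 0.0671, 0.894 and 0.385). GstD8 passed with equal library sums (-0.50, limma adjusted p = 0.0323; 0.0323 to 0.915 across the 15 alternatives). GstD4, GstD5, GstD6 and GstD7 stayed below the filter in the middle of the cluster.

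In the GST classes shared with mammals the 6 called genes were all higher at 50 days. Called were 1 of 3 tested GstO genes, the 1 GstS gene, 2 of 4 GstT genes and 2 of 2 GstZ genes. Of all tested genes 39.1% were called and 18.3% called higher. With equal library sums 3 of the 6 lost their call, GstO1, GstS1 and GstT3, and 3 uncalled genes (GstO2, GstO3 and GstT2) turned negative. Both zeta genes rose; their class includes the maleylacetoacetate isomerase of tyrosine breakdown. GstZ2 had 23, 25.1 and 29.6 FPKM in 50-day heads, against 14.8, 17.1 and 15.8 FPKM in 3-day heads (log2 change 0.77, SE 0.09, limma adjusted p = 0.00057). GstZ1 rose by 0.68 (SE 0.13, limma adjusted p = 0.00501). These genes lie together on 3R, and their ratio did not separate the ages: GstZ2 was 1.64 ± 0.253 times GstZ1 at 50 days and 1.56 ± 0.222 times at 3 days (SD, n = 3 each), with overlap.

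Of the 4 theta genes 2 were called (50%, beside 39.1% of all tested genes). GstT1 had 58.2, 47.8 and 49.6 FPKM in 50-day heads, against 28.1, 30.4 and 35.8 FPKM in 3-day heads, without overlap (log2 change 0.81, SE 0.13, limma adjusted p = 0.00249). GstT2, its neighbour on 2R, did not pass (log2 change 0.22, SE 0.13, limma adjusted p = 0.214). GstT4, the most abundant of the class, had 50.1, 66.7 and 72.9 FPKM in 50-day heads, against 55.5, 52.3 and 55.3 FPKM in 3-day heads. The deposited values overlapped and the scaled ones did not, and GstT4 did not pass (0.30, SE 0.11, limma adjusted p = 0.0624) except without 50-day replicate 1 (0.42, adjusted p = 0.0138; 0.0138 to 0.916 across the 15 alternatives). GstT3, on the X chromosome, rose by 0.60 (SE 0.17, limma adjusted p = 0.0264). Its call was lost without 3-day replicate 1 or 2 (adjusted p = 0.0793 and 0.0826), without 50-day replicate 1 (adjusted p = 0.051) and with equal library sums (0.34, adjusted p = 0.0682); across the 15 alternatives the adjusted p was 0.0216 to 0.0826.

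GstS1, the only sigma gene, conjugates the lipid aldehyde 4-hydroxynonenal and is known as an abundant protein of flight muscle. It had 37.2, 33.4 and 30.5 FPKM in 50-day heads, against 20.4, 25.3 and 31 FPKM in 3-day heads, so the deposited values overlapped and the scaled ones did not. The change was 0.51 (SE 0.16, limma adjusted p = 0.0385), and the call held in only 7 of 15 alternatives. Leaving out 50-day replicate 1 or 2 gave a limma adjusted p of 0.12 or 0.0759, and leaving out 3-day replicate 1 or 2 gave 0.102 or 0.0948. With the replicate number as a block it was 0.0856, with equal library sums 0.178 (change 0.23), and over all 15 it spanned 0.0127 to 0.178. Of 5 muscle markers tested, 4 were called lower (80%, beside 39.1% called of all tested genes), and Act88F did not pass (0.12, limma adjusted p = 0.844). Their list summed to 295 to 362 FPKM at 50 days, against 681 to 1172 FPKM at 3 days. TpnC4, below the filter, had 1.29, 1.25 and 0.779 FPKM at 50 days, against 0, 0 and 1.3 FPKM at 3 days. The part of muscle RNA in the GstS1 values was not tested.

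Of the 3 omega genes, which lie on 3L within 5.98 kb, 1 was called (33.3%, near the 39.1% of all tested genes). GstO3, the most abundant, had 93.4, 103 and 122 FPKM in 50-day heads, against 92.5, 95.6 and 131 FPKM in 3-day heads, with overlap (log2 change 0.11, SE 0.15, limma adjusted p = 0.591). GstO1 rose by 0.45 (SE 0.10, limma adjusted p = 0.00823), which did not hold with equal library sums (0.18, limma adjusted p = 0.256; 0.0026 to 0.256 across the 15 alternatives). GstO2 did not pass (log2 change 0.13, SE 0.13, limma adjusted p = 0.463), except without 3-day replicate 3 (0.27, limma adjusted p = 0.0478; 0.0478 to 0.921 across the 15 alternatives).

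**Figure D4:**
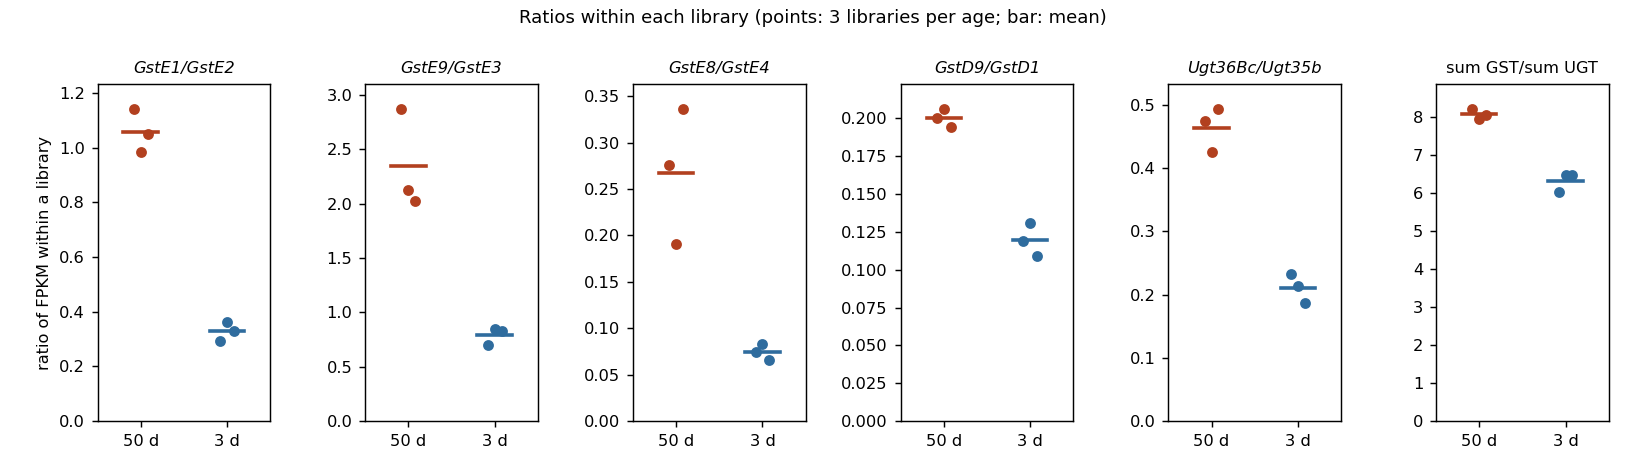
Ratios of FPKM within each library, 50-day libraries left of 3-day libraries, for gene pairs with opposite or unequal changes and for the summed level of the 35 GST over the 17 UGT genes. Points are libraries, bars are means of 3, and each axis starts at 0; in all 6 panels the ages do not overlap.

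The UGT genes carry older symbols in the table. RefSeq now places 12 of the 17 in another numbered family than their symbol says, and the families below are the RefSeq ones. A cluster of 10 UGT genes lies on 3R from 11126597 to 11177910, a span of 51.3 kb, with 7 genes on the minus and 3 on the plus strand. It holds the abundant Ugt35b and Ugt86Da. Of its 10 genes 5 were tested and 2 were called, both lower at 50 days. That share, 40%, is near the 39.1% called of all tested genes.

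Ugt35b, first described from the olfactory organs of the fly, had 78.2, 96.9 and 86.2 FPKM in 50-day heads, against 131, 133 and 170.0 FPKM in 3-day heads. It was the most abundant UGT at both ages and fell without overlap (log2 change -0.61, SE 0.12, limma adjusted p = 0.00597). It held 34.4% to 38.5% of the summed level of the 17 genes with a Ugt symbol in 50-day libraries and 49.9% to 51.3% in 3-day libraries. Markers of antennal support cells fell alongside it, with 4 of 6 called, all lower (66.7% called, beside 39.1% of all tested genes). Their summed level was 818 to 1106 FPKM at 50 days, against 1237 to 1832 FPKM at 3 days. 3-day replicate 3 had the highest antennal sum, and also the highest Ugt35b value. That peak was not particular to Ugt35b: the same replicate was the highest 3-day library for all 8 tested UGTs and 33 of the 38 tested members. The part of antennal support cells in the fall of Ugt35b was not tested.

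Its neighbour Ugt35a, of the same family, fell slightly (log2 change -0.22, SE 0.072, limma adjusted p = 0.0452). The call is close to the threshold and held in 6 of 15 alternatives. Leaving out any 1 library lost it, with limma adjusted p values of 0.127, 0.0899 and 0.0992 without the 50-day libraries in order of number and 0.0918, 0.103 and 0.0665 without the 3-day libraries. The replicate block gave 0.107, and all 15 spanned 0.0107 to 0.127. Ugt86Dd and Ugt86De, also of the Ugt35 family, did not pass, with log2 changes of 0.00022 and -0.25 (SE 0.22 and 0.21). Ugt86Dd stood at 20.6, 15.9 and 18.6 FPKM in 50-day heads, against 18.3, 14.8 and 28.2 FPKM in 3-day heads.

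Ugt86Da, of the Ugt302 family, had 55.5, 61.3 and 69.6 FPKM in 50-day heads, against 53.6, 53.7 and 66.2 FPKM in 3-day heads. The ages overlapped and it did not pass (log2 change 0.21, SE 0.11, limma adjusted p = 0.166), except without 3-day replicate 3 (0.31, adjusted p = 0.028; 0.028 to 0.676 across the 15 alternatives). Relative to Ugt35b in the same library it stood at 0.71, 0.633 and 0.808 at 50 days, against 0.408, 0.404 and 0.39 at 3 days. Ugt58Fa, alone in its family here, did not pass (log2 change -0.045, SE 0.10, limma adjusted p = 0.753).

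Of the Ugt37 family, both tested genes with a Ugt symbol in the table were higher at 50 days, whereas CG5999, which RefSeq names Ugt37A3, did not pass (log2 change -0.38, SE 0.26, limma adjusted p = 0.286). Ugt36Bc, next in level after Ugt86Da, had 37, 41.2 and 42.5 FPKM in 50-day heads, against 30.6, 28.3 and 31.8 FPKM in 3-day heads, without overlap (log2 change 0.51, SE 0.08, limma adjusted p = 0.00205). With equal library sums its change was 0.23 (limma adjusted p = 0.163; 0.00179 to 0.163 across the 15 alternatives). As a share of Ugt35b in the same library it was 0.474, 0.425 and 0.493 at 50 days, against 0.233, 0.213 and 0.187 at 3 days.

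Ugt37a1 showed the largest change of all 38 tested members, a set that it entered only through its 50-day values. It had 8.11, 6.47 and 5.35 FPKM in 50-day heads, against 0.101, 0.106 and 0.612 FPKM in 3-day heads. The lowest 50-day library was 9.04 times the highest 3-day library after scaling. It rose by 2.65 on the log2 scale (SE 0.21, limma adjusted p = 0.000117), and this size depends on the pseudocount because the 3-day values lie below 1 FPKM: with 0.1 in place of 1 it was 4.51. The ratio of scaled means, 26.4, rests on 3-day values of few fragments.

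**Figure D5:**
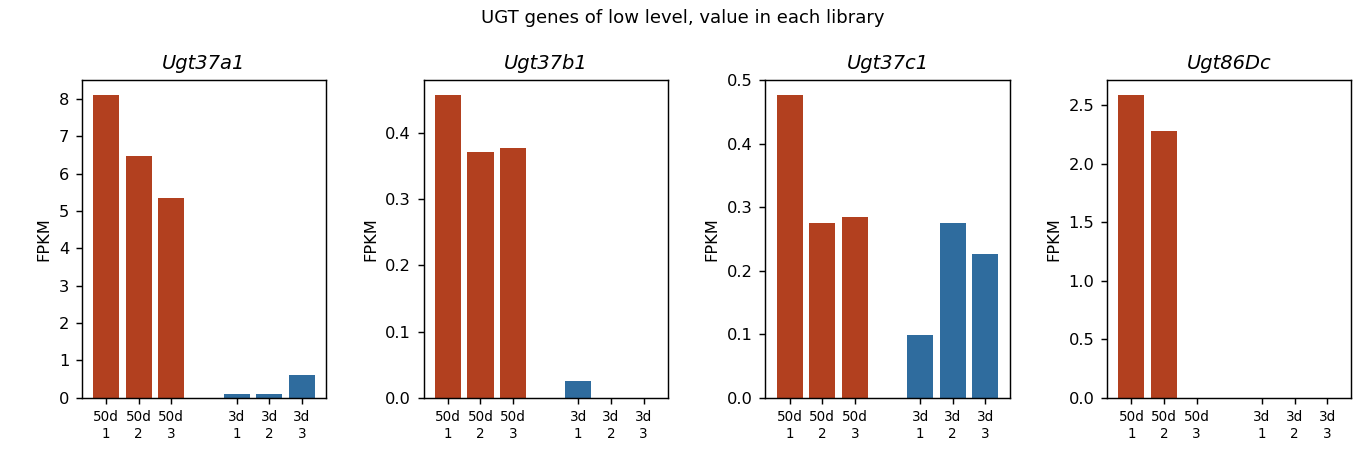
FPKM in each library of 4 UGT genes of low level, 50-day libraries left of 3-day libraries, each panel on its own axis from 0. Other UGT genes below the filter are not shown, and some of them had lower means at 50 days. Ugt37a1 and Ugt37b1 were higher in every 50-day library than in any 3-day library, and Ugt86Dc had values above 0 in only 2 of 6 libraries, both from 50-day heads.

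The 14 members below the filter were GstD4, GstD5, GstD6, GstD7 and GstE10 among the GSTs and 9 UGT genes. Apart from Ugt86Dc none of them exceeded 1.38 FPKM in any library, roughly 37 fragments or fewer. Ugt37b1 had 0.458, 0.372 and 0.377 FPKM in 50-day heads, against 0.025, 0 and 0 FPKM in 3-day heads, the same direction as Ugt37a1. It was the only gene of the 14 to pass when no filter was applied (log2 change 0.49 on the log2(value + 1) scale, limma adjusted p = 0.00171). That p rests on values near 0, at most roughly 17 fragments in any library, and adds no weight to the Ugt37a1 result. Ugt86Dc was listed at 2.59, 2.28 and 0 FPKM in 50-day heads, against 0 in each 3-day library. Its values in 50-day replicates 1 and 2 correspond to at most roughly 89 fragments, and replicate 3 of the same age had none. Ugt86De, at a scaled mean of 1.61 FPKM, lay just inside the filter, and Ugt86Dc, at 0.862 FPKM, just outside it.

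The table lists 15 further genes under other symbols that RefSeq now names Ugt, which the symbol rule leaves out. Of 11 tested, 3 were called higher and 3 lower (54.5% called, beside 39.1% of all tested genes), with a median log2 change of -0.018. CG17322, now Ugt36E1, had 53.4, 49.8 and 47.1 FPKM in 50-day heads, against 9.8, 14.1 and 14.7 FPKM in 3-day heads. Its ages lay far apart, and it rose by 2.00 on the log2 scale (SE 0.15, limma adjusted p = 9.07e-05). Other genes of its family, picked here with their values known, differed: CG17324 (Ugt36F1) rose by 0.95 and CG17323 (Ugt36D1) fell by 0.47 (limma adjusted p = 0.00216 and 0.00647), and Dot (Ugt36A1) did not pass (0.15, limma adjusted p = 0.312). At 50 days CG17322 exceeded Ugt36Bc in each library.

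Other genes of the conjugation pathways are set here beside the 39.1% called over all genes. In glutathione synthesis and recycling 3 of 9 tested genes were called (33.3%), each higher at 50 days, with a median log2 change of 0.21, so that the share called was not above that of all genes. Gclm, the modifier subunit of the rate-limiting enzyme of glutathione synthesis, had 104, 93 and 99.9 FPKM in 50-day heads, against 61.2, 61.9 and 52.7 FPKM in 3-day heads (log2 change 0.86, limma adjusted p = 0.000756). Gclc, the catalytic subunit, did not pass (log2 change 0.014, SE 0.078, limma adjusted p = 0.905). The aldo-keto reductase gene CG6084, placed in the same list, rose by 1.51 (SE 0.23, limma adjusted p = 0.0016). Among regulators of the stress response 4 of 8 were higher and 1 lower (62.5% called, median 0.25). The Nrf2 orthologue cnc rose by 0.59 (SE 0.086, limma adjusted p = 0.00149), whereas its inhibitor Keap1 (-0.069) and its partner maf-S (0.0058) did not pass. Gclm and cnc were picked with their values known.

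Of 8 tested genes in a sugar donor list 4 were higher and 1 lower (62.5% called, median log2 change 0.21). The genes were counted singly and the list as a whole was not tested. It covers UDP-sugars in general, not only the UDP-glucose that insect UGTs mostly use. Gfat1, the first enzyme of the hexosamine pathway, fell by 1.15 (-1.15, SE 0.20, limma adjusted p = 0.00282). UGP, which makes UDP-glucose and was likewise picked with its value known, had 218, 167 and 151 FPKM in 50-day heads, against 93.8, 94 and 127 FPKM in 3-day heads (log2 change 0.87, limma adjusted p = 0.00903). The UDP-glucose dehydrogenase gene sgl, which makes the glucuronic acid donor, did not pass (log2 change -0.12, limma adjusted p = 0.31). Of 10 proteins with a GST fold outside the naming rule 2 were higher and 1 lower (30% called, median -0.10). Of 2 tested sulphotransferases 1 was higher (50% called). Among 7 esterase and epoxide hydrolase genes 2 were higher, with alpha-Est7 at 1.16 (SE 0.14, limma adjusted p = 0.000728), and 2 were lower (57.1% called, median of the 7, 0.17). The 5 tested efflux pumps had log2 changes between -0.24 and 0.14, with limma adjusted p from 0.115 to 0.401.

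Markers of other cell types of the head were mostly called lower where they were called. Lower were 5 of 6 neuronal markers (83.3%) and 3 of 6 glial markers, with 1 higher (66.7% called). Lower too were 2 of 6 photoreceptor markers (33.3%) and 2 of 5 hemocyte markers (40%), shares of calls near the 39.1% of all genes. The 2 lower hemocyte markers were Col4a1 and vkg (log2 changes -1.58 and -1.24). Hml, NimC1 and eater had positive changes of 0.29, 0.54 and 0.14 that did not pass, and the hemocyte median was 0.14. Also lower were 1 of 2 tested olfactory neuron markers (50%) and the 1 tested oenocyte marker. Gut markers were near 0, at a sum of at most 0.28 FPKM in any library, and of 3 Malpighian tubule markers salt was at 0 in all 6, Uro was at most 0.0315 FPKM, and Irk3 had 6.34 to 7.66 FPKM at 50 days and 8.4 to 10.2 FPKM at 3 days. Neurons and photoreceptors were present by their markers in each library, as the label head requires. How far these values enter the changes of single GST and UGT genes was not tested.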

How the data were processed

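RNA sequencing values were used for the 6 Oregon-R libraries, 3 of 50-day and 3 of 3-day flies; 0 columns were left without a sample. The deposited table gives a value per gene and library; its name says counts, but the values are decimals and are read as FPKM, made by the authors with fastp, HISAT2, HTSeq and build BDGP6, per the submitters' processing notes. Versions, annotation, strand and the treatment of reads shared between paralogues are not given in the sources used here, so the split of reads among close GstD, GstE and Ugt copies is uncertain.

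Libraries were brought to a common scale by trimmed-mean factors (30% of ratios and 5% of levels trimmed at each end, genes above 1 FPKM), between 1.0 and 1.11 at 50 days and between 0.948 and 0.972 at 3 days. Genes with a scaled mean of at least 1 FPKM were fitted as log2(value + 1) with limma 3.58.1 in R 4.3.3, with a mean-variance trend and no covariate. P-values were Benjamini-Hochberg adjusted over all 8742 genes, threshold 0.05. On simulated data with 200 changed genes, 94 of 100 changes of 1 and 98 of 100 of 2 (log2) were recovered, with 14 false calls among 8691 genes. The changed genes were drawn only from the more abundant ones, and the simulated noise was independent between genes. Changes smaller than 1 were not simulated, so recovery of the smaller changes reported here is not known. Printed values are deposited FPKM unless called scaled. The labels call the samples biological triplicates.

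All 52 symbols matched a gene of the Ensembl BDGP6.54 annotation; UGT families came from RefSeq names. Members, gene lists and marker lists were chosen with earlier results of these data known. Library values were to be given for members with an adjusted p under 0.05 and a log2 change of at least 1 in size, the most abundant of each GST class and the 3 most abundant UGTs; cluster neighbours, GstT1, GstE14, Ugt86Dd and genes below the filter were added after their values were seen. Tried alternatives were the scaling, pseudocount, filter, variance trend, gene length trend, replicate block and leaving out each library. The smallest exact permutation p for 3 against 3 is 0.10. The values of a gene in the sugar donor list are not reported here.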

Additional observations from a re-analysis of the deposited data

How the results depend on the processing

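Over 15 alternatives the number of genes called ran from 2619 to 3859 (3418 as reported) and the number of GST and UGT genes called from 17 to 27 (23). With 1 library left out, 19 to 27 members were called, 12 to 20 of them higher and 6 to 7 lower. Of the 23 calls, 14 kept direction and call in every alternative that tested them: GstD9, GstD11, GstE1, GstE2, GstE3, GstE8, GstE9, GstE13, GstE14, GstT1, GstZ1, GstZ2, Ugt35b and Ugt37a1. Rescaling each library to the same sum gave 8 members called higher, against 15 as reported, and turned the sign of GstD1 (-0.043), GstE5 (-0.24), GstE6 (-0.079), GstE12 (-0.055), GstO2 (-0.15), GstO3 (-0.17), GstT2 (-0.052), Ugt86Da (-0.071) and Ugt86Dd (-0.27), none of which was called as reported. It moves the median of all genes by -0.26. With unscaled values GstE5 (-0.08) and Ugt86Dd (-0.10) turned, and with the length trend removed GstE5 (-0.067) and Ugt86Dd (-0.048). With 1 library left out, 4 uncalled genes crossed 0: GstD3 ran from -0.15 to 0.07, GstE5 from -0.09 to 0.089, Ugt58Fa from -0.10 to 0.04 and Ugt86Dd from -0.21 to 0.25. The cause of these turns was not tested. Libraries of equal replicate number did not deviate together (Pearson r of -0.209, -0.104 and -0.235 for numbers 1, 2 and 3 across genes); with the replicate block 2702 genes and 21 members were called, and GstS1 and Ugt35a lost their calls. With no depth stated, values below 1 FPKM are not resolved further.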
